A study of Mus musculus with 6 samples.

Results

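The cytosolic ribosomal protein genes were followed in poly(A) RNA of mouse primary peritoneal macrophages, the phagocytes of the abdominal cavity. Members were the rows of the deposited gene table whose name has the form of a ribosomal protein gene (Rpl or Rps, a number and at most the letter a, x or l) and the rows of Rplp0, Rplp1, Rplp2 and Rpsa. This rule found 82 of 27240 genes, 32 named for the small and 50 for the large subunit. Of these, 76 were taken as the core genes of the ribosome (30 small, 46 large). The other 6 were the protein-coding relatives Rps27l, Rpl39l and Rpl3l and the annotated processed pseudogenes Rps4l, Rpl6l and Rpl32l. The rule uses names only, so it misses genes such as Rps3a1, Fau and Rack1, which also encode cytosolic ribosomal proteins.

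Libraries were of 2 genotypes, 3 labelled wild type (WT) and 3 labelled knockout (KO). All 6 had oxLDL as the treatment, that is, low-density lipoprotein that has been oxidised and is cleared by scavenger receptors on macrophages. The series title names the kinase DCLK1 and its binding to IKKβ in macrophage inflammation. The labels give neither the deleted part of a gene, the cells in which it was deleted, nor strain or age. No library without oxLDL was analysed here, so the comparison is of genotype under oxLDL. Whether replicates came from different animals or cultures is not labelled. The p-values therefore refer to the spread between these libraries only, and that spread may be technical.

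Ribosomes make protein, and each holds about equal numbers of its many proteins, assembled on ribosomal RNA in the nucleolus. Cells make the ribosomal protein mRNAs in step. In vertebrates these mRNAs typically start with a C followed by a run of pyrimidines, the 5′ terminal oligopyrimidine (TOP) tract, through which the kinase mTORC1 and the protein LARP1 set how well they are translated. TOP control acts mainly on translation, which a measure of mRNA amounts does not show. The genes are also the parents of very many processed pseudogenes, copies that share long stretches of sequence with them and so can take or lose reads.

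The TOP tract was looked for as a run of at least 8 C or T letters that includes the RefSeq start position, on the gene's own strand. RefSeq (GRCm38.p6) gave 72 start windows for 60 of the member symbols, and 18 of them (25%) held such a run, against 3.86% of all 32851 windows. A start set some bases away from the true one loses the run, so absence from a window is no statement about the gene. Rplp0, Rpl5, Rps25 and Rpl41, which recur in the results, have no such run at their listed starts. Windows of 40 bases, 20 on each side of the start boundary, are shown for 5 other genes that recur, with any run in capitals. The last, Rpl37a, which had the smallest p-value among the members, has no such run at its listed start. Its window ends before the start of the gene as deposited (72711290), so it does not cover that position. The windows of Rpl7a, Rps6 and Rps10 do not cover the deposited starts of their genes either (26910764, 86857412 and 27635545). That of Rps27 does (90213648).
Rpl7a, chr2:26910787-26910826, plus strand: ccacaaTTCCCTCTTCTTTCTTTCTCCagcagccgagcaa
Rps6, chr4:86857348-86857387, minus strand: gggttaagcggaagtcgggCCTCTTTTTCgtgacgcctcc
Rps10, chr17:27635225-27635264, minus strand: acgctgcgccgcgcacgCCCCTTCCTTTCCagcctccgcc
Rps27, chr3:90213629-90213668, minus strand: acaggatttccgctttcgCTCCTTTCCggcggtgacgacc
Rpl37a, chr1:72711240-72711279, plus strand: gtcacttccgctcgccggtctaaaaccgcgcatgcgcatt
The Rps6 window also holds CGGAAG, a core sequence bound by ETS-family factors, and the Rpl37a window holds it on the other strand. With 250 bases before and 50 after the start, and both strands read, CGGAAG stood in 44 of the 72 member windows (61.1%) and in 16.9% of all windows. Read on the other strand CGGAAG is CTTCCG, whose first 5 letters can also be part of a pyrimidine run, so the 2 searches are not independent.

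Macrophage identity was checked first. Adgre1, Cd68 and Csf1r stood at 1057, 1994 and 1021 CPM in WT (CPM is a count relative to library size, here adjusted by TMM factors), and of 10 macrophage markers Lyz2 alone passed the threshold, lower in KO (log2 fold change -1.04, edgeR adjusted p = 6.5e-06). The 10 markers summed to 20384 to 21625 CPM in WT and 12613 to 12760 CPM in KO, most of it Lyz2. Their median log2 fold change was -0.05, with 7 fitted values below 0 and 3 above, the highest at 0.65. Every KO library lay below every WT library for 2 of them and above for 1 (8.89% and 8.68% of all genes). Transcripts of other cells were present at low levels, with Ly6g and Retnlg at 0 counts in every library. The summed level of 8 T and NK cell markers was 11.4 to 12.7 CPM in WT and 8.14 to 8.75 in KO. For 10 fibroblast and mesothelial markers it was 95.1 to 99.8 and 71.8 to 85.4 CPM, for 8 neutrophil and mast cell markers 28.3 to 30.9 and 22.8 to 26.3 CPM, and for 7 B cell markers 69.5 to 84.7 and 60.0 to 72.1 CPM. Most of the B cell sum is Cd22 (log2 fold change -0.29), while 5 of the 7 B cell markers had fitted values above 0 at under 1 CPM. The median log2 fold change of the 7 was 0.83, and 0 of them were called. Dclk1 stood at 6.70 to 7.43 CPM in WT and at 5.15 to 5.89 CPM in KO (edgeR adjusted p = 0.332), a level over the whole gene that cannot show a missing exon. Total counts per library were 68053008 to 79090732.

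Ribosomal protein transcripts as a whole were slightly less abundant in the KO libraries. The 82 genes took 1.73%, 1.79% and 1.69% of all counts in WT replicates 1 to 3 and 1.70%, 1.67% and 1.65% in KO. KO replicate 1 stood above WT replicate 3, so the groups overlapped on this scale. Means were 1.74 ± 0.0523% and 1.67 ± 0.0270% (SD, n = 3 each), a KO to WT ratio of 0.964. Counting error was far smaller than these gaps: the Wilson 95% interval was 1.646 to 1.652% in KO replicate 3, the lowest library, and 1.789 to 1.795% in WT replicate 2, the highest. On TMM-scaled library sizes the summed levels were 17284, 18153 and 16978 CPM in WT and 16878, 16690.3 and 16352 CPM in KO. These did not overlap, although the nearest WT and KO libraries lay close together, and the ratio of the means was 0.952. In RNA of a whole culture, fewer cells of a type and less of an RNA per cell cannot be told apart.

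Both subunits shared in this difference. The 30 core small-subunit genes summed to 7200 ± 284 CPM in WT and 6810 ± 56.5 in KO (SD, n = 3 each), and the 46 large-subunit genes to 10191 ± 326 and 9756 ± 222. The nearest libraries, WT replicate 3 and KO replicate 1, stood at 6964.5 and 6875 CPM (small) and at 9934 and 9928 CPM (large). As percent of all counts the groups overlapped for both subunits. WT replicate 3 was at 0.692% (small) and 0.988% (large), and KO replicate 1 at 0.693% and 1.001%. The ratio of small- to large-subunit counts was 0.706 ± 0.00536 in WT and 0.698 ± 0.0122 in KO, with KO replicate 3 (0.712) the highest of the 6 libraries. The balance between the subunits thus differed between groups by less than the spread between KO libraries.

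**Figure D1:**
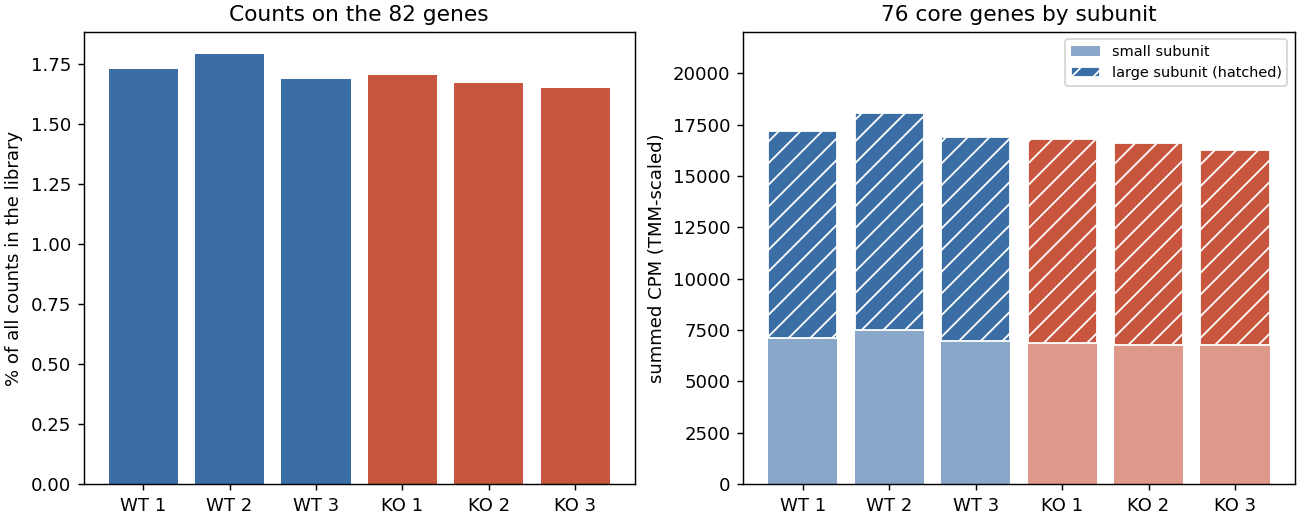
Left, percent of all counts on the 82 genes in each of the 6 libraries (WT blue, KO red). Right, summed TMM-scaled CPM of the 76 core genes, small subunit in the pale lower part and large subunit in the hatched upper part. WT replicate 2 is the highest bar and KO replicate 3 the lowest in both panels, and the other 4 lie between them.

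Of the 81 members with enough counts to test, 0 passed the edgeR quasi-likelihood test at an adjusted p under 0.05, and 11 of all 16239 genes did (0.0677%, with 0.0431% lower and 0.0246% higher in KO). The member nearest the threshold, Rpl37a, had an adjusted p of 0.190. At an unadjusted p under 0.05 there were 12 members, each with a fitted value below 0 (10.4% of all genes, 5.71% with a fitted value below 0). DESeq2 called 1 member, Rpl37a, and 2.81% of all genes. In 21 of the 81 members every KO library lay below every WT library, a pattern seen in 8.89% of all genes, and in 0 members did every KO library lie above every WT library (8.68% of all genes). The fitted log2 fold change (KO over WT) was below 0 for 70 of 81 members, against 50.5% of all genes. Its median was -0.07 (quartiles -0.11 and -0.02), beside -0.0019 for all genes tested (quartiles -0.15 and 0.12). Members' values thus lay much closer together than those of genes at large, on the lower side of 0. Such closeness was not particular to them among the gene lists read below. Quartiles were -0.07 and -0.01 for 14 translation factors and -0.09 and 0.02 for 38 tested proteasome genes. They were wider, -0.10 and 0.06, for 75 mitochondrial ribosomal protein genes.

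Libraries within a group were not alike. WT replicate 2 held the highest value of the 6 for 44 of the 76 core genes, and KO replicate 3 the lowest for 35. Relative to the WT mean, the median core gene stood at -0.02, 0.04 and -0.03 (log2) in WT replicates 1 to 3 and at -0.03, -0.06 and -0.09 in KO replicates 1 to 3. KO replicate 1 was thus level with WT replicate 3. Without WT replicate 2, the members' median log2 fold change was -0.05 with 59 of 81 members below 0. When library sizes were taken without ribosomal protein and mitochondrial genes, and TMM scaling was left out, 60 of 81 were below 0. The median was again -0.05, beside 0.02 for all genes. These changes of setting were not run apart. A ribosomal RNA row, CT010467, moved across the same libraries: it stood at 645, 708 and 644 CPM in WT and at 909, 1587 and 2636 CPM in KO (adjusted p = 0.190, edgeR). Its part in the result, and that of the other cell types' transcripts above, was not tested.

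**Figure D2:**
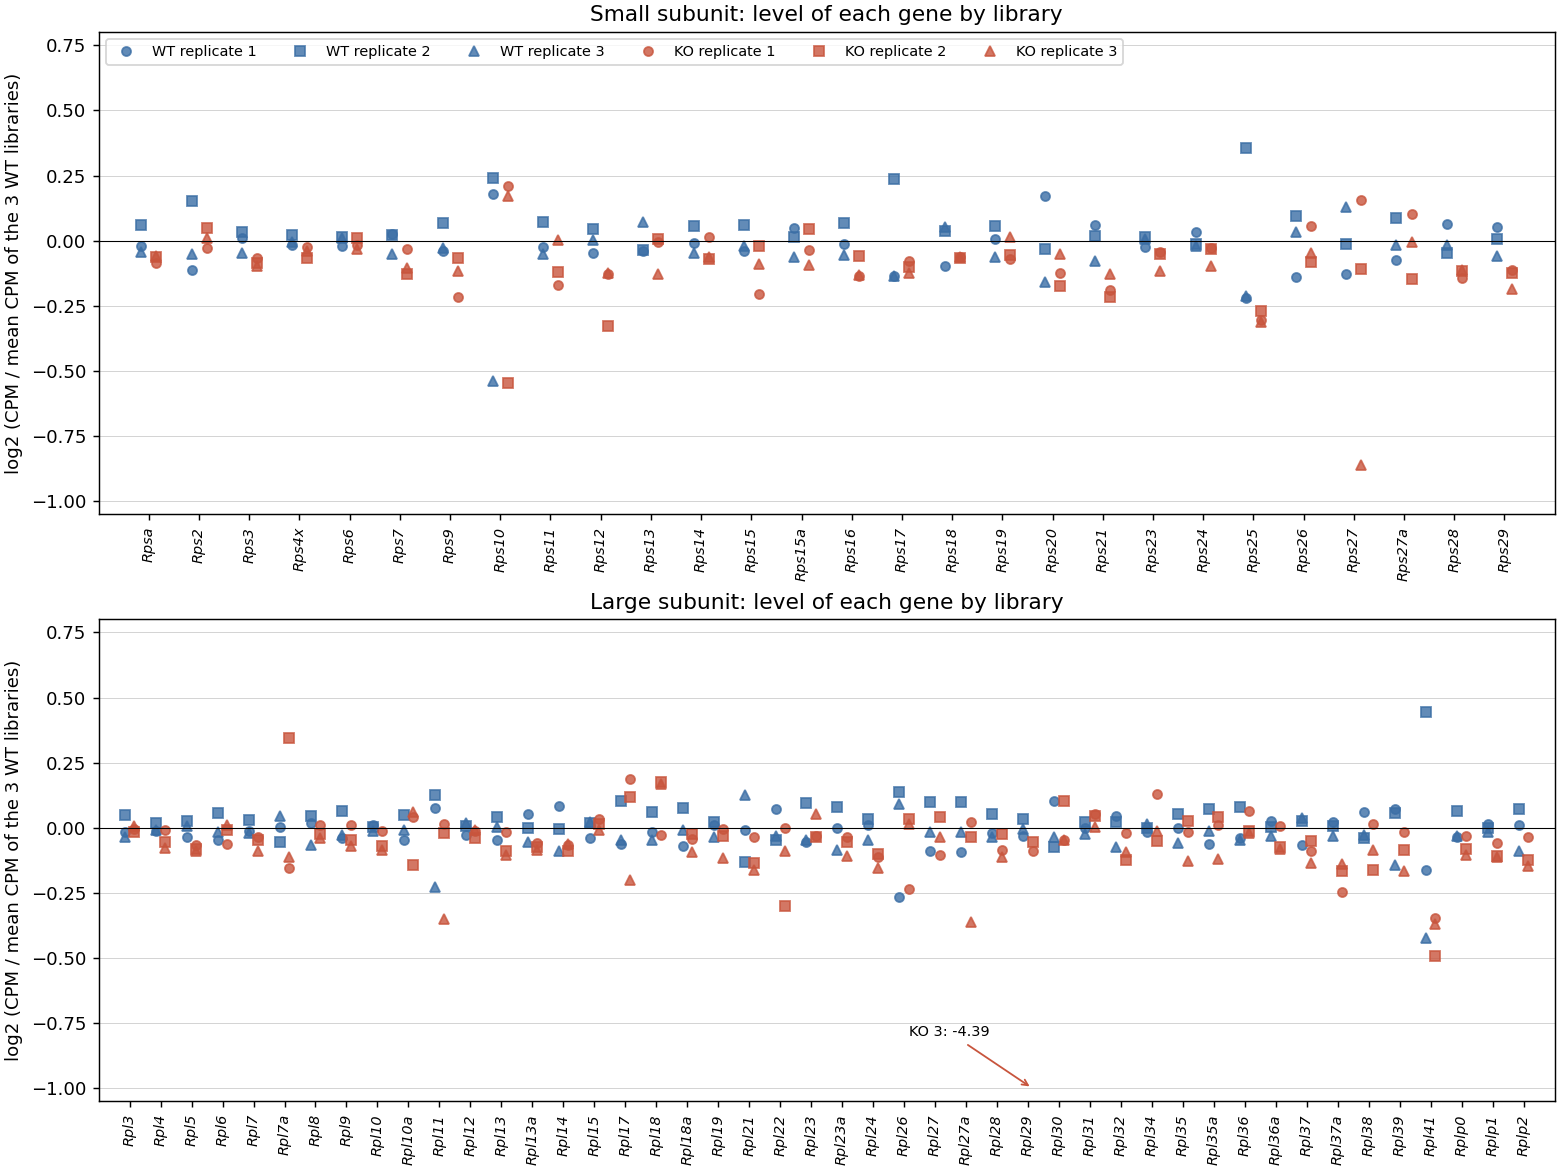
Level of 74 of the 76 core genes in each library, as log2 of its CPM over the mean of the 3 WT libraries (WT blue, KO red; symbols mark replicates). Most genes lie within 0.25 of 0 in every library, and an arrow marks the Rpl29 value of KO replicate 3 (-4.39), which is off the axis.

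The fits bounded the size of any difference. The median standard error of a core gene's log2 fold change was 0.05, beside 0.15 for all genes tested, and the 95% interval lay inside a 1.25-fold change in either direction for 65 of the 81 members. It excluded 0 for 12, the same members that had an unadjusted p under 0.05 (8 small, 4 large). Core small-subunit genes had a median of -0.09, with 29 of 30 below 0 and 13 of 30 without overlap. Core large-subunit genes had a median of -0.06, with 38 of 46 below 0 and 7 of 46 without overlap. Over all genes, 50.5% were below 0 and 8.89% without overlap on the lower side. Whether the subunits differ in this was not tested.

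**Figure D3:**
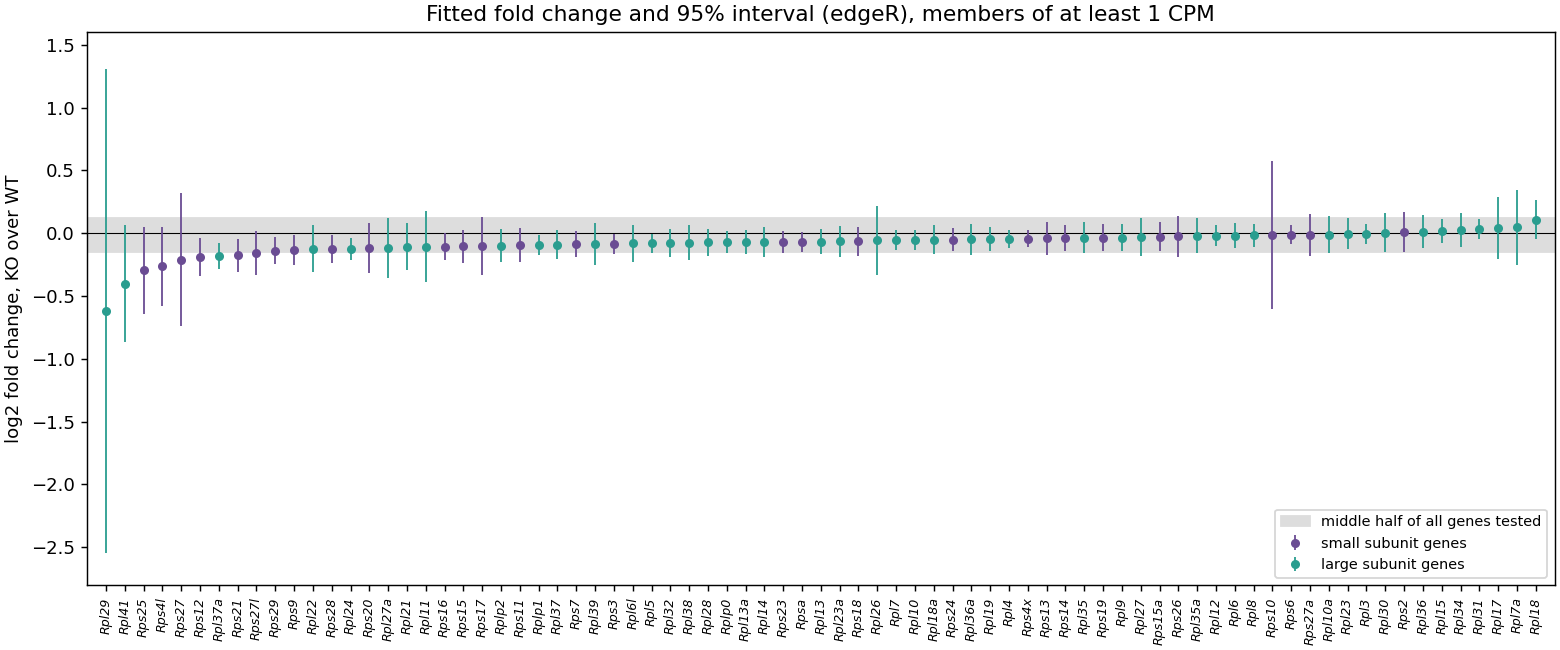
Fitted log2 fold change (KO over WT) with its 95% interval from edgeR for members of at least 1 CPM, ordered by value (small subunit purple, large subunit green); the grey band spans the quartiles of all genes tested (-0.15 to 0.12). Most members lie between -0.2 and 0.05 with narrow intervals, and the widest interval is that of Rpl29.

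Rpl37a (ENSMUSG00000046330, chromosome 1, 72711290 to 72713813, plus strand, as deposited) encodes a zinc-binding protein of the large subunit. It stood at 181, 179 and 174 CPM in WT and at 150, 158 and 162 CPM in KO. Every KO library lay below every WT library, by more than the spread within either group. With an SE of 0.0444 and a 95% interval of -0.29 to -0.08, its log2 fold change was -0.18. The same gap remained when the reads of rows that share sequence with it were added: 190.0, 191 and 187 CPM against 167, 167 and 173 CPM.

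Of the other members with an interval clear of 0, those given here, chosen after their values were seen, followed the same form with smaller gaps or wider scatter. Rps21, of the small subunit, stood at 73.0, 71.0 and 66.4 CPM in WT and 61.5, 60.5 and 64.2 in KO (log2 fold change -0.18, edgeR adjusted p = 0.318). Rpl24, of the large subunit, stood at 352, 357 and 337 CPM in WT and 323, 325 and 313 in KO (-0.12, adjusted p = 0.307). In both genes the groups did not overlap. Rps29, a zinc-binding protein of the head of the small subunit, stood at 157, 152 and 145 CPM in WT and 140, 139 and 133 in KO (-0.14). Rps12 stood at 128, 136 and 132 CPM in WT and 121, 105 and 121 in KO (-0.19). With the sequence-sharing rows added, Rps12 stood at 241, 272 and 268 CPM in WT and 255, 239 and 248 in KO, and the groups overlapped. Rps9, Rps28, Rps3, Rpl5 and Rplp1 had log2 fold changes of -0.13, -0.12, -0.08, -0.08 and -0.09, all without overlap.

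On the small subunit, the proteins that line the mRNA path were Rps2 and Rps3 at the entry and Rpsa at the exit. Rps3 was at 458 ± 13.2 CPM in WT and 432 ± 4.94 in KO (SD, n = 3 each, as below). Rpsa, also known as a laminin-binding protein, was at 570 ± 21.2 and 543 ± 5.42 CPM, without overlap (log2 fold change -0.07, adjusted p = 0.555). Rps2 was at 351 ± 34.2 and 353 ± 9.36 CPM, a difference well inside the WT spread. Rps14, on the platform, was at 275 ± 9.88 and 268 ± 8.51 CPM (-0.04). Rps19, of the head, mutated in Diamond-Blackfan anaemia, was at 206 ± 8.67 and 201 ± 6.14 CPM (-0.04). For Rps14 and Rps19 the groups overlapped.

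Rps6, whose protein is phosphorylated by the S6 kinases downstream of mTORC1, stood at 338, 346 and 345 CPM in WT and 339, 346 and 336 in KO. Its interval, -0.09 to 0.06 on the log2 scale, was among the narrower ones and included 0. Rps27a, made as a fusion with ubiquitin, was at 243 ± 13.7 and 240 ± 20.7 CPM (log2 fold change -0.01). X-linked Rps4x was at 490 ± 6.87 and 475 ± 6.95 CPM (-0.04), without overlap. Rps23, which sits at the decoding centre, was at 332 ± 4.66 and 316 ± 8.50 CPM (-0.07), also without overlap. Rps15, of the head, was at 225 ± 8.23 and 210 ± 13.3 CPM (-0.10), Rps20 at 175 ± 20.7 and 162 ± 7.05 CPM (-0.12), and Rps24 at 241 ± 4.82 and 233 ± 6.14 CPM (-0.05). Of these last 3, Rps24 had no overlap.

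On the large subunit, the P stalk binds the translation factors that hydrolyse GTP. Its base, Rplp0, was the member with the most counts, at 700, 750 and 702 CPM in WT and 701, 678 and 667 in KO (log2 fold change -0.07, adjusted p = 0.563). KO replicate 1 stood above WT replicate 1, so the groups overlapped. Rplp1 stood at 302, 298 and 294 CPM in WT and 286, 277 and 275 in KO, without overlap (-0.09, adjusted p = 0.409). Rplp2 was at 166 ± 9.19 and 155 ± 6.49 CPM (-0.10). The 3 stalk genes thus lay on the same side of 0 with like sizes.

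Near the peptidyl transferase centre, Rpl3 was at 453 ± 14.3 and 452 ± 3.62 CPM, with a 95% interval of -0.08 to 0.08. Rpl10, which also takes part in the late step at which the subunits join, was at 351 ± 2.96 and 338 ± 9.13 CPM (-0.05). Along the exit tunnel, Rpl4 was at 683 ± 7.70 and 661 ± 17.0 CPM (-0.05), Rpl39 at 97.1 ± 7.83 and 91.4 ± 4.76 CPM (-0.09) and Rpl17 at 51.8 ± 3.35 and 53.4 ± 7.37 CPM (0.04). For Rpl10, Rpl4, Rpl39 and Rpl17 the groups overlapped.

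Rpl5 and Rpl11 join 5S ribosomal RNA in a particle that, when left over from assembly, binds MDM2 and lets p53 accumulate. Rpl5 stood at 408, 426 and 419 CPM in WT and 399, 395 and 392 in KO, without overlap (log2 fold change -0.08, SE 0.0321, edgeR adjusted p = 0.446). Rpl11 stood at 234, 242 and 189 CPM in WT and 224, 219 and 174 in KO, with replicate 3 the lowest library in both groups (-0.11, SE 0.121). Rpl13a, known also from the GAIT complex that silences inflammatory mRNAs in myeloid cells, stood at 268, 258 and 249 CPM in WT and 248, 246 and 244 in KO. Its groups did not overlap, but the gap between the nearest libraries was small (-0.07, adjusted p = 0.601). Rpl22, known for roles in lymphocyte development, was at 100.1 ± 4.50 and 91.8 ± 9.60 CPM (-0.12), with overlap. Rpl19, at 363 ± 8.07 and 350.4 ± 14.0 CPM (-0.05), also overlapped.

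The members with the highest fitted values were few and close to 0. Rpl18 stood at 114, 120.4 and 112 CPM in WT and 113, 130.3 and 130 in KO (log2 fold change 0.11, adjusted p = 0.633). KO replicates 2 and 3 were above all WT libraries and KO replicate 1 was not. Rpl31 was at 263 ± 4.12 and 269 ± 4.74 CPM (0.03). Rpl7a was at 102 ± 3.55 and 105 ± 21.2 CPM (0.05), with KO replicate 2 (129.5 CPM) above the other 5 libraries.

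The most negative fitted values came from genes in which 1 library stood apart. Rpl29 (chromosome 9, 106429454 to 106431568, plus strand, as deposited) stood at 101, 105 and 103 CPM in WT, at 96.7 and 99.2 CPM in KO replicates 1 and 2, and at 4.91 CPM in KO replicate 3, where 359 counts were listed against 6844 to 8073 elsewhere. Its log2 fold change of -0.62 (SE 0.823, 95% interval -2.55 to 1.31) therefore rests on that library. Rpl41, which encodes a very short basic peptide, stood at 217, 330 and 181 CPM in WT and 191, 173 and 188 in KO (-0.40, adjusted p = 0.545), with WT replicate 2 high. Rps25, a protein needed by several viral internal ribosome entry sites, stood at 122, 181 and 122 CPM in WT and 115, 118 and 114 in KO (-0.30, adjusted p = 0.550), again with WT replicate 2 high. For Rps25 the groups did not overlap even so.

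Over the core genes, a value more than 1.3-fold from the median of the other 5 libraries (a bound chosen after the values were seen) occurred 7 times, in 6 genes. Besides Rpl29 in KO replicate 3 (0.0487 of that median), Rpl41 in WT replicate 2 (1.76) and Rps25 in WT replicate 2 (1.54), these were Rpl7a in KO replicate 2 (1.32), Rps27 in KO replicate 3 (0.556) and Rps10 in WT replicate 3 and KO replicate 2 (0.608 and 0.605). Rps10 stood at 140, 146 and 85.0 CPM in WT and at 143, 84.6 and 139 in KO, so that it took 2 levels with both genotypes at each. Otherwise the core genes were even: the median coefficient of variation was 3.99% in WT and 3.25% in KO, and the median gene's highest library was 1.14-fold its lowest.

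How far reads could be exchanged with copies was measured as 50-base sequences shared with transcripts of other genes in GENCODE M21. Of the 82 members 79 shared at least 1, 47 shared more than 50%, and the median share was 53.5%. There were 469 other rows that held at least 10% of a member's 50-base sequences, for 72 members, and together they took 0.288 to 0.307% of all counts in each library. When these rows were added to their parent gene, the departures shrank to 5 values in 4 genes. The members' median was again -0.07, 76 of 81 lay below 0, 22 were without overlap on the lower side and 0 on the higher, and 0 were called. Before rows were added, 8.89% and 8.68% of all genes were without overlap on these sides. For the 10 core genes that shared under 30% of their sequences (a split chosen after the values were seen) the median was -0.09 with 10 of 10 below 0, and for the other 66 it was -0.06.

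For Rps27, the levels were set beside those of a copy. Its retrogene Rps27rt has the same coding sequence, base for base over 252 bases. Rps27 stood at 112, 121 and 134 CPM in WT and at 137, 114 and 67.5 in KO. Rps27rt stood at 32.4, 20.8 and 8.77 CPM in WT and at 11.6, 21.4 and 62.6 in KO, high where Rps27 was low. With these and the other sharing rows added, the level was 146, 143 and 144 CPM in WT and 149, 135 and 131 in KO, so the drop of Rps27 in KO replicate 3 was mostly gone (0.910 of the median of the others). The vertebrate paralog Rps27l differs from Rps27 at 60 of 252 coding bases (76.2% identity) and shares 22.4% of its 50-base sequences with other genes. The 2 coding sequences, from GENCODE M21 transcripts (GRCm38), are shown because reads of the 2 genes can be told apart only where they differ, with the bases at which Rps27l departs in capitals.
Rps27: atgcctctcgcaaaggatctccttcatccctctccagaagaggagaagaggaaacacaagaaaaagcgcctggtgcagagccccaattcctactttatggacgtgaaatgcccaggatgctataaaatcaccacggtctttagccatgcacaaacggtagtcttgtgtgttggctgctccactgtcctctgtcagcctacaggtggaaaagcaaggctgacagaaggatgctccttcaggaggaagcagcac
Rps27l: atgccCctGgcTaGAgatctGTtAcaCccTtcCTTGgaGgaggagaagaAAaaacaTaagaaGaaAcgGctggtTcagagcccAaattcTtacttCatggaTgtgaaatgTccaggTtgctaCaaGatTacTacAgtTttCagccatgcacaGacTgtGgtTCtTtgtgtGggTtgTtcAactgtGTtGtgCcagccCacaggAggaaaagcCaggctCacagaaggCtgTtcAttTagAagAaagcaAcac
Rps27l stood at 44.5, 44.0 and 44.5 CPM in WT and at 40.4, 35.7 and 42.9 in KO (log2 fold change -0.16, edgeR adjusted p = 0.520), without overlap.

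The levels of Rpl7a were set beside those of 2 such rows. Its row, that of its pseudogene Rpl7a-ps11 and that of Gm8226, which hold 75.4% and 75.03% of its 50-base sequences, kept much the same sum in every library, but in KO replicate 3 Rpl7a-ps11 stood at 197 CPM (91.5 to 103 elsewhere) and Gm8226 at 19.1 CPM (89.0 to 98.7 elsewhere). For Rpl29 the sharing rows did not make up the missing counts, since their sum with Rpl29 was 53.6 CPM in KO replicate 3 and 141 to 150 CPM in the other 5 libraries. Rps10 with its sharing rows kept its low libraries too (0.741 and 0.761 of the median of the others). Rpl41 and Rps25 in WT replicate 2 stayed high (1.61 and 1.55).

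**Figure D4:**
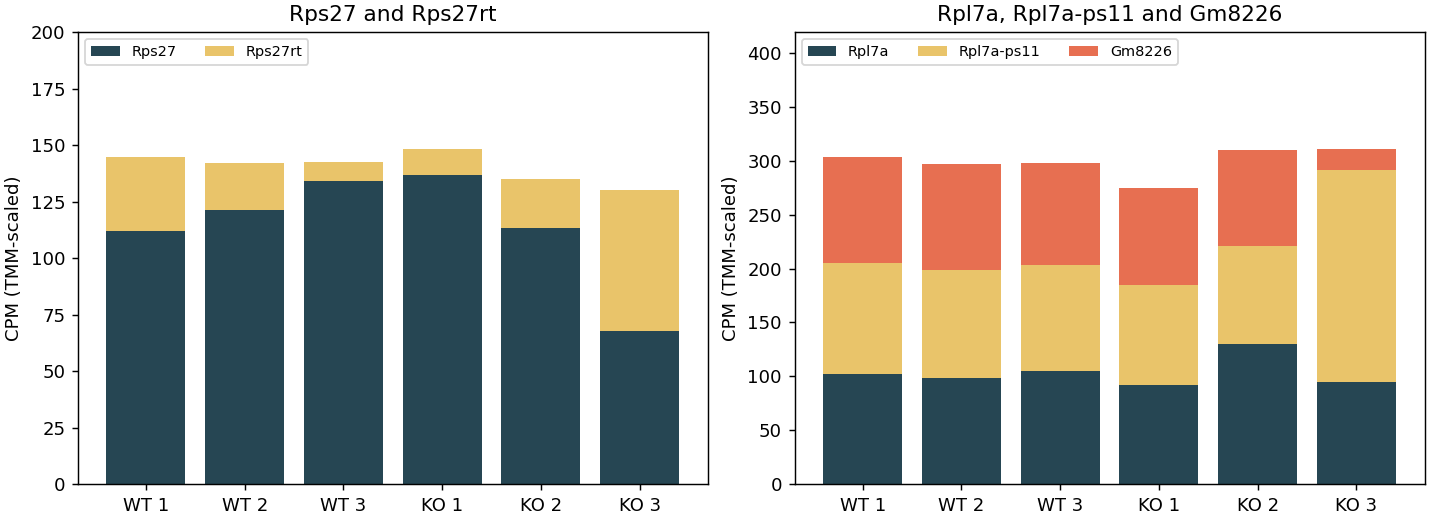
Stacked TMM-scaled CPM per library of Rps27 and its retrogene Rps27rt (left) and of Rpl7a, Rpl7a-ps11 and Gm8226 (right). The height of each stack varies little while its parts vary: Rps27 stands at 67.5 CPM and Rps27rt at 62.6 CPM in KO replicate 3, and Rpl7a-ps11 there stands at 197 CPM.

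Tissue-restricted relatives were nearly silent. Rpl3l, the muscle form of Rpl3, had 8 counts in WT replicate 3, 7 in KO replicate 2 and 0 in the other 4 libraries, where 0 counts allow up to 3 counts, or 0.0382 to 0.0441 CPM. It was the 1 member not tested. Rpl39l, the form of Rpl39 abundant in male germ cells, had 19, 19 and 12 counts in WT and 4, 12 and 35 in KO. At 0.229 ± 0.0674 and 0.232 ± 0.220 CPM it stood far under Rpl39, and its interval (-1.92 to 1.95) bounds no difference. The 153-base coding sequences differ at 23 bases (85.0% identity), and Rpl39l shares no 50-base sequence with another annotated transcript, so reads of that length can be told apart. The sequences are shown for that reason, with the bases at which Rpl39l departs in capitals.
Rpl39: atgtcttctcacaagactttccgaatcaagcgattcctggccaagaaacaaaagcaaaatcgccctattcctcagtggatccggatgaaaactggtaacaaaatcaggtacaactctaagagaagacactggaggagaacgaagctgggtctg
Rpl39l: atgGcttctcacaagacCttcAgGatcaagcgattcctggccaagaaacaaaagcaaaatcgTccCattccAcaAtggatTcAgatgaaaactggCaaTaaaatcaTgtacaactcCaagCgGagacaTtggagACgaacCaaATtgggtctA
Among the pseudogenes, Rpl6l was at 28.2 ± 0.989 and 26.6 ± 1.02 CPM, Rps4l at 7.73 ± 0.818 and 6.43 ± 0.670 CPM (log2 fold change -0.26) and Rpl32l at 0.495 ± 0.127 and 0.538 ± 0.0755 CPM (0.12). Each shares sequence with its parent, 76.4% of the 50-base sequences in Rpl6l, so these levels are uncertain.

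The levels of the core genes were then set side by side per length, since each mature ribosome holds about equal numbers of most of the proteins. In the deposited FPKM values (fragments scaled for gene length and library size), Rplp1 was highest at 520 (mean of the 6 libraries), followed by Rplp0 (379), Rpl19 (313) and Rps15 (310.0). Rps4x (266) and Rps23 (230) led the rest of the small subunit, and Rps24 and Rps20 were its lowest core genes at 34.0 and 37.1. Rpl21 was lowest of all at 8.99, on reads assigned to its own row alone. The whole range was 57.8-fold and the quartiles were 54.1 and 158.

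Much of this range moved with the length by which FPKM divides. For 98.3% of 9437 genes with enough counts, the length implied by the deposited count and FPKM was, within 1% after a common factor of 1.11, that of all annotated exons of the gene together. For ribosomal protein genes this includes retained introns: 62 members list a transcript of that kind. The exon total was 1 to 9.80 times as long as the coding transcript, with a median of 2.37. Per kilobase of coding transcript, the range fell to 15.3-fold and the quartiles to 202 and 373 CPM per kilobase, a ratio of 1.84 in place of 2.92 between them. Over the 76 core genes, Spearman's rho between FPKM and the length ratio was -0.717 and between FPKM and CPM per kilobase 0.681, as descriptions of genes that share libraries. The exon total enters both FPKM and the length ratio, and the count enters both FPKM and CPM per kilobase. Both signs are therefore in part built in. Rps15a moved most: its exon total of 6270 bases is 9.80 times its transcript of 640 bases, and it ranked 66th of 76 by FPKM (41.2) and 10th per kilobase of transcript (450 CPM). Rps19, with a ratio of 7.40, moved from 67th to 30th. Rpl31, with 3.41, moved from 23rd to 2nd.

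Per kilobase of coding transcript the order was led by Rplp1, at 597 ± 7.03 CPM per kilobase in WT and 560.0 ± 11.7 in KO (SD, n = 3 each, as below). Rpl31 followed at 540.3 ± 8.45 and 553 ± 9.73, apart from Rplp1 in WT and not beyond the spread in KO. Rplp0 was at 528 ± 21.1 and 502 ± 13.0, Rps4x at 502 ± 7.04 and 488 ± 7.13 and Rpl24 at 515 ± 15.2 and 473 ± 9.21. Rpl31 and Rplp0 in WT, and Rps4x and Rpl24 in WT, did not differ beyond their spread. At the other end stood Rpl21 (39.3 ± 3.52 and 36.4 ± 1.70), Rps20 (47.4 ± 5.58 and 43.7 ± 1.90) and Rpl17 (66.8 ± 4.33 and 68.9 ± 9.51). The place of Rps20 depends on the annotation, whose only coding transcript for it has 3706 bases. Rpl21 and Rpl17 share 55.5% and 78.7% of their 50-base sequences with other genes, and the pseudogene Rpl17-ps10 stood at 170 ± 9.90 and 159 ± 12.8 CPM, above Rpl17 itself. With the sharing rows added, Rpl21 went from 35.4 to 335 CPM in WT and from 32.8 to 319 CPM in KO. Rpl17 went from 51.8 to 324 CPM in WT and from 53.4 to 309 CPM in KO. The low places of Rpl21 and Rpl17 therefore hold only for reads assigned to their own rows. So does the lower end of the FPKM and per-kilobase ranges, which Rpl21 sets.

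**Figure D5:**
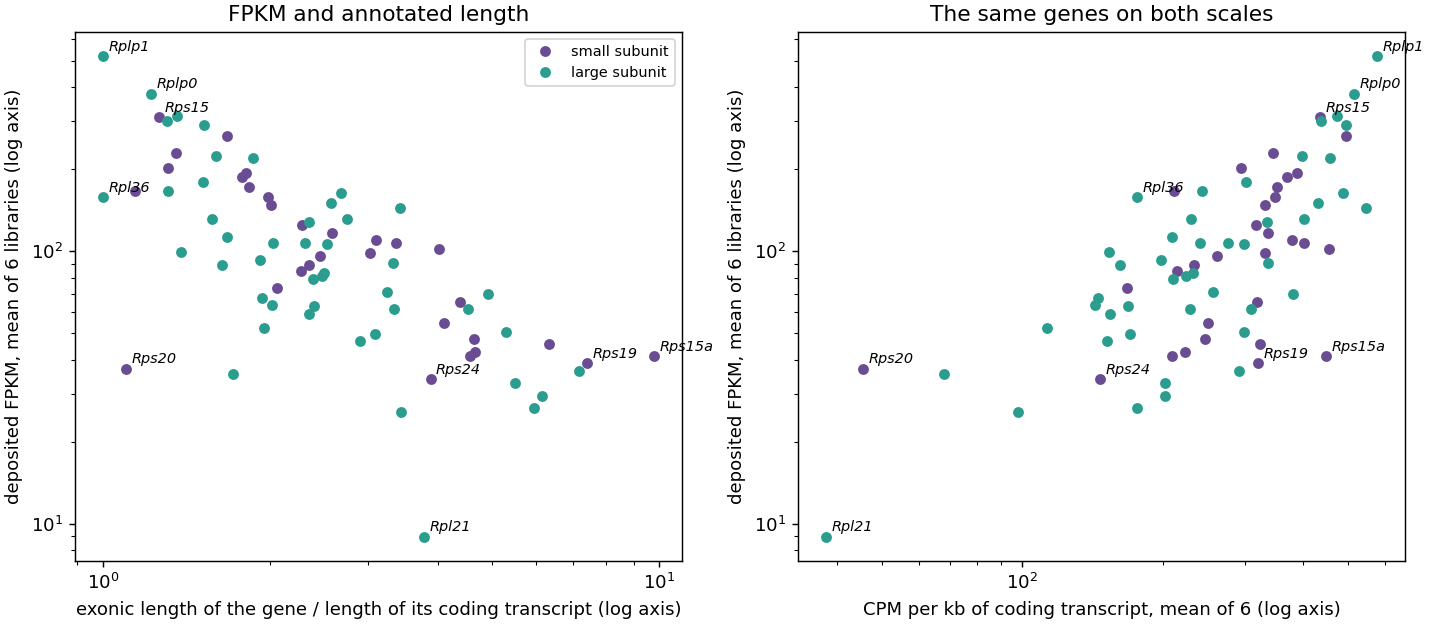
Deposited FPKM of each core gene (mean of 6 libraries, log axes) against the ratio of its exonic length to its coding transcript (left) and against CPM per kilobase of coding transcript (right); small subunit purple, large subunit green. FPKM is lower where the ratio is higher (rho -0.717, in part built in because the exon total enters both). Rps15a and Rps19 lie low by FPKM and mid or high per kilobase of transcript.

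Genes that serve the ribosome were read from lists in the same fit. Of 8 further cytosolic ribosomal genes outside the naming rule, 0 were called, with a median log2 fold change of -0.06. Rps3a1 was at 521 ± 18.9 and 508 ± 14.3 CPM (-0.03). Rack1, a signalling scaffold on the small subunit, was at 503 ± 63.6 and 438 ± 62.7 CPM (-0.20), with wide overlap. Of 127 tested pseudogene rows named for ribosomal proteins, 0 were called, with a median of -0.08. Rps12-ps3, the second most abundant after Rpl17-ps10, was at 115 ± 10.6 and 116 ± 5.07 CPM (0.01).

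Translation factors whose mRNAs also carry TOP tracts numbered 14, of which 0 were called, 12 had fitted values below 0 and the median was -0.03. Eef1a1, which brings aminoacyl-tRNA to the ribosome, stood at 4175, 4269 and 4156 CPM in WT and 4027, 4248 and 4115 in KO, with overlap. Eef2, the translocation factor, stood at 1495, 1521 and 1487 CPM in WT and 1425, 1407 and 1433 in KO, without overlap (log2 fold change -0.08, SE 0.0215, edgeR adjusted p = 0.252). Among 16 genes of mTORC1 and TOP control, 0 were called and 8 lay on each side of 0 (median -0.01). Every KO library lay above every WT library for Mtor, Eif4ebp2 and Eif4e (8.68% of all genes) and below for Mlst8 (8.89% of all genes). Larp1, the TOP-binding repressor, was uneven within groups, at 221, 339 and 338 CPM in WT and 196, 205 and 313 in KO (-0.33, adjusted p = 0.672). Cnbp was at 156 ± 9.94 and 143 ± 9.27 CPM (-0.12).

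For ribosomal RNA synthesis, 0 of 15 RNA polymerase I genes were called (median -0.03). Without overlap, 2 were lower and 1 higher, beside 8.89% and 8.68% of all genes. Polr1a, the largest subunit of the polymerase, stood at 65.8, 65.7 and 66.1 CPM in WT and 73.6, 75.2 and 76.2 in KO, without overlap (log2 fold change 0.19, SE 0.0430, adjusted p = 0.169). Ubtf, its DNA-binding partner, stood at 80.1, 79.3 and 84.6 CPM in WT and 74.8, 69.6 and 76.4 in KO, also without overlap and on the other side (-0.14, adjusted p = 0.414). Of 38 assembly factors 0 were called (median -0.02; 5 without overlap lower, 0 higher), with the nucleolar proteins Ncl at 377 ± 2.76 and 373 ± 8.81 CPM and Npm1 at 249 ± 4.24 and 248 ± 1.71 CPM. Of 9 tested hosts of small nucleolar RNAs 0 were called (median 0.07). Gas5, which itself begins with a TOP tract, was at 46.2 ± 2.75 and 45.1 ± 2.88 CPM, and Snhg1 at 13.1 ± 1.36 and 13.7 ± 0.334 CPM.

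Stress readouts of the ribosome gave 0 calls. Among 12 genes of the p53 response the median was -0.02. For Mdm4, Zmat3 and Phlda3 every KO library lay above every WT library (8.68% of all genes). Each had an edgeR unadjusted p under 0.05 (10.4% of all genes, in either direction). Their log2 fold changes were 0.19, 0.16 and 0.63 (edgeR adjusted p = 0.408, 0.471 and 0.418). For Trp53 every KO library lay below every WT library (8.89% of all genes), with a log2 fold change of -0.26 (edgeR adjusted p = 0.282). The 2 most abundant genes of the list lay close to 0, with Bax at 120.4 ± 2.60 and 117 ± 2.63 CPM and Ccng1 at 112 ± 2.33 and 111 ± 2.44 CPM. Among 14 genes that rescue stalled ribosomes the median was 0.01 (2 without overlap lower, 1 higher), with Tcf25 at 181 ± 2.99 and 181 ± 6.38 CPM and Abce1 at 135 ± 6.37 and 134 ± 2.73 CPM.

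Other large complexes of housekeeping genes were read the same way. Over all genes, 8.89% were without overlap on the lower side and 8.68% on the higher. Of 75 mitochondrial ribosomal protein genes 0 were called, 39 lay below 0 and the median was -0.01 (4 without overlap lower, 3 higher), with Mrpl24 at 54.0 ± 0.648 and 52.5 ± 4.41 CPM and Mrpl51 at 35.7 ± 0.448 and 35.6 ± 2.56 CPM. Of 36 complex I genes 0 were called, 20 lay below 0 and the median was -0.01 (4 without overlap lower, 3 higher), with Ndufs1 at 63.0 ± 1.55 and 68.1 ± 3.14 CPM. Of 38 tested proteasome genes (the name pattern also takes in immunoproteasome subunits) 0 were called, 26 lay below 0 and the median was -0.03, with 9 genes without overlap on the lower side and 0 on the higher. Psmd8 was at 435 ± 31.0 and 437 ± 30.7 CPM and Psmd2 at 355 ± 19.0 and 353 ± 4.20 CPM. Fitted values of the proteasome genes ran from -0.55 to 0.32. Their lowest edgeR adjusted p, 0.0756, was below that of any member (0.190). Whether the cytosolic ribosomal protein genes differ from these complexes was not tested.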

How the data were processed

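Poly(A) RNA was sequenced as paired-end libraries, per the labels' protocols. Per the submitters' processing notes, HISAT2 2.0 was used. Which tool counted reads, with what strand setting, annotation and build, is not given in the sources used here. The deposited count columns hold whole numbers per gene and library, and the deposited FPKM columns, per the file headers, are length-scaled. A further 12 per-sample columns matched no sample and were not used. Coordinates are as deposited, and 71 of 82 members have the same ones in GENCODE M21 (GRCm38).

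Counts were filtered with filterByExpr, scaled by TMM and tested two-sided with edgeR 4.0.16 quasi-likelihood fits (R 4.3.3) on genotype alone, with Benjamini-Hochberg adjustment over 16239 genes and a threshold of 0.05. CPM use TMM-scaled library sizes. Fits were tested on simulated data. Alternatives were RLE scaling, no filter, DESeq2 1.42.0, limma 3.58.1 on log2(FPKM + 1) and log2(FPKM + 0.1), and voom sample weights. Others were a replicate block, leaving out each library and adding named pseudogenes. A further one took library sizes without ribosomal protein and mitochondrial genes and used no TMM scaling. Adding rows that share sequence was chosen after seeing the data. The coding transcript was the shortest with the principal transcript's coding length, a rule set after lengths were seen.

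Members, lists and tests were chosen with earlier results of these data known. Members named in the text were those past the threshold (0), genes of known role, the 3 highest and 3 lowest by FPKM per subunit, and the 4 largest fitted changes per direction at 10 CPM or more. Lists gave genes past the threshold or their 2 most abundant. Genes with an unadjusted p under 0.05, library departures, the split by shared sequence and CT010467 were chosen after values were seen. Promoter windows are from RefSeq (GRCm38.p6), which matched 60 member symbols. Some genes that the rule names are counted but not reported by name. Wilson intervals and floors cover counting error only, while the 95% intervals of fold changes rest on the spread between libraries. Genes of lists without overlap, where named, were chosen after values were seen.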

Additional observations from a re-analysis of the deposited data

How the results depend on the processing

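The count of 0 ribosomal protein genes called held under every alternative run except DESeq2, which called 1 (Rpl37a) and 457 genes in all. Over all genes the count, 11 by edgeR, was 7 without the filter, 3 by limma on unfiltered FPKM, 22 with voom sample weights, 3 with the replicate block and 7 to 35 with a library left out. Same-numbered libraries deviated together only weakly (correlations 0.04, 0.05 and 0.01), so replicate numbers were not taken as pairs. The members' median log2 fold change stayed below 0 throughout, from -0.05 to -0.07, within 1 SD between replicates (0.034) of the reported value.

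Of 625 values for 37 named members under 17 alternatives, 26 changed sign, all in genes whose intervals include 0. Rpl3 was at 0.0091 by limma on log2(FPKM + 1), with and without the filter, 0.0092 with a pseudocount of 0.1, 0.0013 with voom sample weights and 0.018 with library sizes taken without ribosomal protein and mitochondrial genes, a setting that also put Rps6 at 0.0074 and Rps27a at 0.0086. Rpl39l was at -0.013 by limma on unfiltered FPKM, -0.34 with voom sample weights and -0.38 with the replicate block. Rpl17 was at -0.076 with named pseudogenes added and -0.067 with sequence-sharing rows added, which put Rpl7a at -0.10 and Rps2 at -0.0021. With a library left out, Rpl17 ranged from -0.032 to 0.15, Rpl3 from -0.022 to 0.022, Rpl32l from -0.035 to 0.33, Rpl39l from -1.06 to 0.49, Rpl7a from -0.14 to 0.14, Rps2 from -0.044 to 0.092, Rps27 from -0.44 to 0.029 and Rps27a from -0.074 to 0.046.

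Core genes had at least 359 counts in every library. The cause of these changes was not tested.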
